A study of Mus musculus with 10 samples.

Results

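The 8 genes described here are Edil3, Cdh13, Prr16, Amd2, Eno1b, Glo1-ps, Gm9917 and Pnp2. They were chosen as the genes of the study's RNA-seq list of transcripts that differ between genotypes whose summed accessibility also differed between KO and WT mice at an adjusted p under 0.05. The genes were thus chosen by the KO and WT values of these same libraries, and those values are given as a description. Any adjusted p printed below for these genes or their peaks describes the choice and lends it no support. Together the genes hold 90 of the 246479 peaks with counts, under 8 of the 44580 gene IDs.

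ATAC-seq uses the transposase Tn5 to place adapters into DNA that nucleosomes leave free, so that counts over a peak rise with its accessibility. Intestinal epithelial cells (IECs) of the duodenum and upper jejunum, purified by flow cytometry, were taken from 5 WT mice (WT1 to WT5) and 5 global KO mice (KO6 to KO10), 1 library per mouse. The KO mice lack the metal transporter Zip14 (Slc39a14) in every tissue, through a targeted deletion in that gene which the WT mice do not carry, so an effect of its loss in IECs cannot be told apart from a response to its loss elsewhere. Both genotypes came from crosses of heterozygous mice backcrossed to C57BL/6, and the study used young adult mice, female unless stated otherwise. Slc39a14 and the epithelial markers are not paired with a gene ID here, so the genotypes and the cell type rest on the labels. A library held from 5202949 to 15775481 counts in WT mice and from 4731176 to 6094983 in KO mice, and the deepest library was WT5.

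The genes belong to 3 kinds. Edil3, Cdh13 and Prr16 are long protein-coding genes whose proteins act at the cell surface, in the matrix or in the control of cell growth. Amd2, Eno1b, Glo1-ps and Pnp2 are copies of housekeeping genes of metabolism: a retrocopy arises when a spliced transcript is copied back into the genome and lands without the promoter of its source gene, while a tandem copy arises beside its source. Gm9917 is annotated as a long noncoding RNA. Reads from a near-identical copy can be assigned to either copy or dropped by the aligner, so the counts over Amd2, Eno1b, Glo1-ps and Pnp2 are uncertain where their sequence matches that of the source gene.

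A promoter was on hand for 2 of the 8 genes, Amd2 and Gm9917. The 250 bases before the start of each are shown with those of Amd1, the gene from which Amd2 was copied, because they show how far the DNA before a retrocopy differs from that before its source. They come from RefSeq on GRCm38.p6, all on the minus strand and written 5′ to 3′, at chr10:35711892-35712141 for Amd2, chr10:40302189-40302438 for Amd1 and chr9:107566966-107567215 for Gm9917. Capitals mark each match, on either strand, to the CCAAT box (CCAAT, or ATTGG on the other strand), the GC box (GGGCGG) or the core of the metal response element (TGCACNC or TGCGCNC, where N is any base). The exact spelling TATAAA of the TATA box was also searched and had no match in these windows. Other spellings of the TATA box were not searched.
Amd2: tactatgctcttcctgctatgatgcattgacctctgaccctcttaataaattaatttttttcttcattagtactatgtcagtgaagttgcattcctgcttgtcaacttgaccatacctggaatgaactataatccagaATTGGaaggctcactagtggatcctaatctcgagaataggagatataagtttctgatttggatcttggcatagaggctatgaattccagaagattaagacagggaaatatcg
Amd1: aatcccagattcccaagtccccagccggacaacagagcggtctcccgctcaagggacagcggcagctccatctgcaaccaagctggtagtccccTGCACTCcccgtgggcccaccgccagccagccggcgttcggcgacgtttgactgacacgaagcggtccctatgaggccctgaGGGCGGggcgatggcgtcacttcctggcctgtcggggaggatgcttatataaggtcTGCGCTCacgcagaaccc
Gm9917: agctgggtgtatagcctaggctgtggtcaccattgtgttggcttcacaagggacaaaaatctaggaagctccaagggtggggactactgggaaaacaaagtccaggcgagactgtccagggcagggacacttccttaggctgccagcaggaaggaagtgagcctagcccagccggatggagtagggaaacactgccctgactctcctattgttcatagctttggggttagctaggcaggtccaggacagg

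The Amd2 window held 2 CpG dinucleotides and 37.6% G and C, and the Amd1 window held 19 CpG and 64.4%. The median over the windows of 32851 promoters was 6 CpG and 52.4%. Before the start, 64 of 250 positions were the same in Amd2 and Amd1 and the longest identical run was 7 bases, while an identical run of 48 bases began after the start of both. The likeness of the pair thus lay in the transcribed part. The Amd2 window had 1 CCAAT box, 112 bases before the start, a motif held by 33.8% of all promoters. The Amd1 window had 1 GC box, a motif held by 32.7%, and 1 match to each spelling of the metal response element, held by 10.4% and 12.5%. The Gm9917 window held 2 CpG and 54.8% G and C, and no match. These are matches of letters in a window and not sites of binding, and which peak of a gene lies over its promoter was not determined here.

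The accessibility of a gene is the sum of the counts over its peaks, given as CPM, a count brought to a common library size with edgeR's TMM factors. The peaks of a gene are those under its gene ID, and their place relative to the gene was not determined. Glo1-ps spans 650 bases and has 6 peaks, Eno1b 3045 bases and 17 peaks, and Amd2 3201 bases and 5 peaks. A sum may thus hold peaks that lie outside the gene. Log2 fold changes of KO over WT, with their standard errors (SE), come from edgeR's quasi-likelihood fit over all 36715 gene IDs tested. In that fit 2.90% of the gene IDs were higher and 1.01% lower in KO mice at an adjusted p under 0.05, which is 3.91% in all. The share called changed when 1 mouse was left out. In edgeR's quasi-likelihood test 0% passed without WT3, WT5, KO6, KO9 or KO10. In these 5 fits 7147 to 8651 gene IDs had an unadjusted p under 0.05. Without WT2, 8.87% passed. The part of the smaller number of mice in these changes was not tested. Of the 234 tested genes of the RNA-seq list, 8 passed, which is 3.42% and near that background. By this rule 5 genes were more accessible in KO mice (Edil3, Cdh13, Prr16, Amd2 and Eno1b) and 3 less accessible (Glo1-ps, Gm9917 and Pnp2). For some of these genes and their neighbours all KO mice are said below to lie on 1 side of all WT mice. The share of all gene IDs that separate so was not counted. The gene just inside the threshold was Cdh13, with a log2 fold change of 0.52 and an adjusted p of 0.049 in edgeR's quasi-likelihood test. The first gene outside it was Tc2n, with -0.27 and an adjusted p of 0.056 in the same test.

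**Figure D1:**
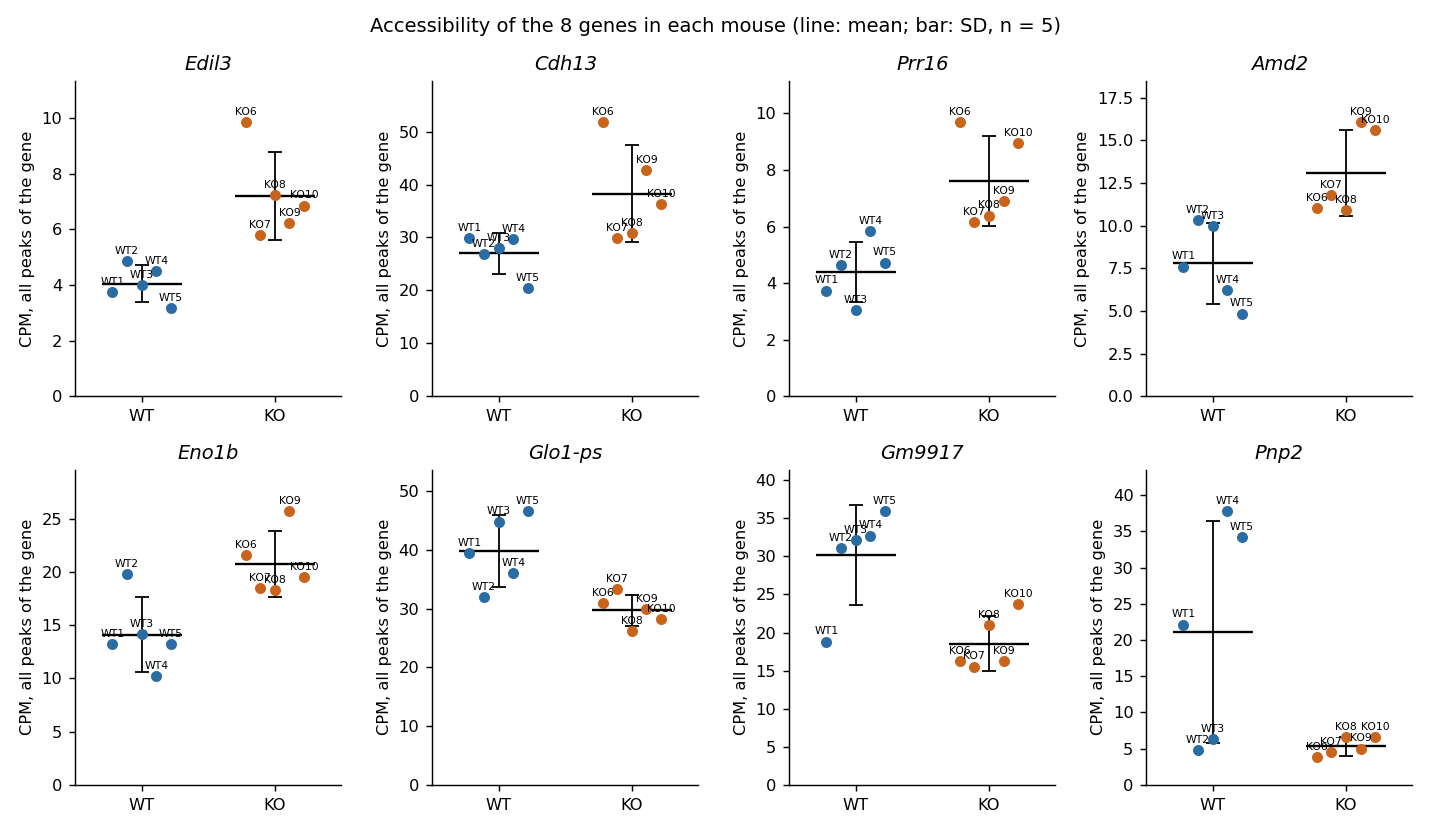
Summed accessibility of each of the 8 genes in CPM (vertical axes, from 0) for every WT mouse (blue) and KO mouse (orange). Lines are means and bars are SDs over 5 mice. The KO mice lie above all WT mice for Edil3, Cdh13, Prr16 and Amd2, which the choice of the genes by this contrast favours. The WT mice are widest apart for Pnp2, from 4.85 to 37.8 CPM.

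Edil3 (ENSMUSG00000034488, chromosome 13 from 88821472 to 89323225) encodes a secreted matrix protein that binds integrins on endothelial and other cells. Its 7 peaks together had 3.73, 4.85, 3.99, 4.50 and 3.17 CPM in WT1 to WT5. They had 9.86, 5.80, 7.23, 6.22 and 6.86 CPM in KO6 to KO10. All 5 KO mice were above every WT mouse, with KO6 the highest and KO7 the lowest of them. The mean was 4.05 ± 0.657 CPM (SD, n = 5) in WT and 7.19 ± 1.59 CPM (SD, n = 5) in KO mice, and the log2 fold change 0.87 (SE 0.19). The sums rest on 24 to 59 counts per mouse.

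No peak of Edil3 had enough counts to be tested by itself, and none exceeded 17 counts in any mouse. The mean CPM of the KO mice was higher in 7 of 7 peaks. The strongest peak held 25.7% of the gene's counts, and the difference was spread over several peaks. The peak with the largest share of it, peak 5 in the order of the chromosome, carried 24.6%.

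Cdh13 (ENSMUSG00000031841, chromosome 8 from 118140017 to 119324929) encodes T-cadherin, a cadherin held in the membrane by a lipid anchor and without a cytoplasmic tail, known as a receptor for adiponectin. Its 43 peaks together had 29.9, 26.9, 28.0, 29.7 and 20.4 CPM in WT1 to WT5. In KO6 to KO10 they had 51.8, 29.9, 30.8, 42.7 and 36.4 CPM. The genotypes did not overlap, but the lowest KO mouse, KO7, and the highest WT mouse, WT1, both stood at 29.9 CPM when rounded. The mean was 26.98 ± 3.86 CPM (SD, n = 5) in WT and 38.3 ± 9.11 CPM (SD, n = 5) in KO mice, and the log2 fold change 0.52 (SE 0.14).

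The KO mean was higher in 34 and lower in 9 of the 43 peaks of Cdh13. The strongest of them held 8.80% of the counts, so that no peak stood for the gene. Of the 2 peaks with enough counts to be tested, peak 22 had 2.20 ± 0.438 CPM in WT and 3.49 ± 0.987 CPM in KO mice (SD, n = 5 each). For peak 13 the values were 2.13 ± 0.542 and 3.08 ± 1.36 CPM (SD, n = 5 each). All KO mice were above all WT mice in peak 22 and 2 of 5 were in peak 13.

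Prr16 (ENSMUSG00000073565, chromosome 18 from 51117898 to 51304641) encodes Largen, a proline-rich protein known to raise cell size through translation. Its 8 peaks together had 3.73, 4.65, 3.05, 5.84 and 4.72 CPM in WT1 to WT5, and 9.69, 6.17, 6.39, 6.91 and 8.94 CPM in KO6 to KO10. The lowest KO mouse, KO7, was just above the highest WT mouse, WT4. The mean was 4.40 ± 1.06 CPM (SD, n = 5) in WT and 7.62 ± 1.59 CPM (SD, n = 5) in KO mice, and the log2 fold change 0.79 (SE 0.20). The sums rest on 23 to 79 counts per mouse, and no peak was tested by itself. The KO mean was higher in 7 of 8 peaks, and peak 8, which carried 30.3% of the difference, had 1.04 ± 0.474 CPM in WT and 2.01 ± 0.394 CPM in KO mice (SD, n = 5 each).

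Amd2 (ENSMUSG00000063953, chromosome 10 from 35708691 to 35711891) encodes a form of S-adenosylmethionine decarboxylase, the enzyme that makes the aminopropyl donor for the polyamines spermidine and spermine. In the annotation Amd2 spans 3201 bases and Amd1 14731. Its 5 peaks together had 7.60, 10.3, 9.98, 6.20 and 4.84 CPM in WT1 to WT5. They had 11.03, 11.8, 10.9, 16.1 and 15.6 CPM in KO6 to KO10. All KO mice were above all WT mice, KO9 and KO10 the farthest, and WT2 came closest to the KO range. The mean was 7.79 ± 2.37 CPM (SD, n = 5) in WT and 13.1 ± 2.54 CPM (SD, n = 5) in KO mice, and the log2 fold change 0.79 (SE 0.20).

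Unlike the 3 long genes, Amd2 was carried by a single peak. Peak 3 held 72.9% of its counts and 77.6% of the difference, with 5.56 ± 1.34 CPM in WT and 9.67 ± 2.19 CPM in KO mice (SD, n = 5 each). All 5 KO mice were above every WT mouse in it. Peak 1 had 1.34 ± 0.593 and 2.32 ± 0.486 CPM (SD, n = 5 each), and the other 3 peaks held at most 6.89% of the counts each.

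Eno1b (ENSMUSG00000059040, chromosome 18 from 48045335 to 48048379) encodes a copy of alpha-enolase, which forms phosphoenolpyruvate in glycolysis, and lies within the long noncoding RNA gene G630055G22Rik. Its 17 peaks together had 13.2, 19.8, 14.2, 10.2 and 13.2 CPM in WT1 to WT5. In KO6 to KO10 the sums were 21.6, 18.5, 18.3, 25.7 and 19.5 CPM. The genotypes overlapped through WT2, which was above KO7, KO8 and KO10. The mean was 14.1 ± 3.51 CPM (SD, n = 5) in WT and 20.7 ± 3.08 CPM (SD, n = 5) in KO mice, and the log2 fold change 0.58 (SE 0.15). The KO mean was higher in 14 of 17 peaks and in all 4 tested ones, whose log2 fold changes lay between 0.66 and 0.74.

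Glo1-ps (ENSMUSG00000075391, chromosome 2 from 35340338 to 35340987) is a pseudogene of glyoxalase 1, the enzyme that begins the removal of methylglyoxal, and lies 3328 bases after Stom. Its 6 peaks together had 39.5, 31.9, 44.8, 36.0 and 46.7 CPM in WT1 to WT5. In KO6 to KO10 they had 30.9, 33.3, 26.2, 29.9 and 28.3 CPM. KO7 lay above WT2, and the other 4 KO mice lay under the lowest WT mouse. The mean was 39.8 ± 6.10 CPM (SD, n = 5) in WT and 29.7 ± 2.67 CPM (SD, n = 5) in KO mice, and the log2 fold change -0.43 (SE 0.11).

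The KO mean was lower in 6 of 6 peaks of Glo1-ps, though unequally. Peak 2 held 60.3% of the counts and was lower in each KO mouse than in any WT mouse, with 24.3 ± 2.08 CPM in WT and 18.3 ± 2.43 CPM in KO mice (SD, n = 5 each). Peak 3 had 6.83 ± 2.27 and 4.06 ± 0.904 CPM (SD, n = 5 each) and carried 27.6% of the difference. Peak 1, with 2.41 ± 1.14 and 2.34 ± 0.658 CPM (SD, n = 5 each), carried 0.743%.

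Gm9917 (ENSMUSG00000097099, chromosome 9 from 107559126 to 107566965) is a long noncoding RNA gene that overlaps the protein-coding genes Rassf1 and Tusc2. It lies on the minus strand, and its start is 907 bases from Hyal2. Its 1 peak had 18.8, 31.1, 32.1, 32.7 and 36.0 CPM in WT1 to WT5, and 16.2, 15.5, 21.0, 16.2 and 23.7 CPM in KO6 to KO10. WT1 lay among the KO mice, below KO8 and KO10, and the other 4 WT mice were above every KO mouse. The mean was 30.2 ± 6.60 CPM (SD, n = 5) in WT and 18.5 ± 3.62 CPM (SD, n = 5) in KO mice, and the log2 fold change -0.71 (SE 0.16). The peak had between 83 and 602 counts. Because the genes overlap or lie close here, the peak cannot be ascribed to Gm9917 rather than to Rassf1, Tusc2 or Hyal2 from its gene ID alone.

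Pnp2 (ENSMUSG00000068417, chromosome 14 from 50956141 to 50964751) encodes a purine nucleoside phosphorylase, which splits inosine and guanosine into base and ribose phosphate, and lies 2728 bases after Pnp. Its 3 peaks together had 22.1, 4.85, 6.30, 37.8 and 34.2 CPM in WT1 to WT5. In KO6 to KO10 they had 3.84, 4.49, 6.56, 5.01 and 6.65 CPM. WT1, WT4 and WT5 were far above all KO mice, while WT2 and WT3 lay inside the KO range. The mean was 21.1 ± 15.3 CPM (SD, n = 5) in WT and 5.31 ± 1.25 CPM (SD, n = 5) in KO mice, and the log2 fold change -2.04 (SE 0.44). The highest WT mouse was 7.80 times the lowest, against 1.73 times among the KO mice.

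**Figure D2:**
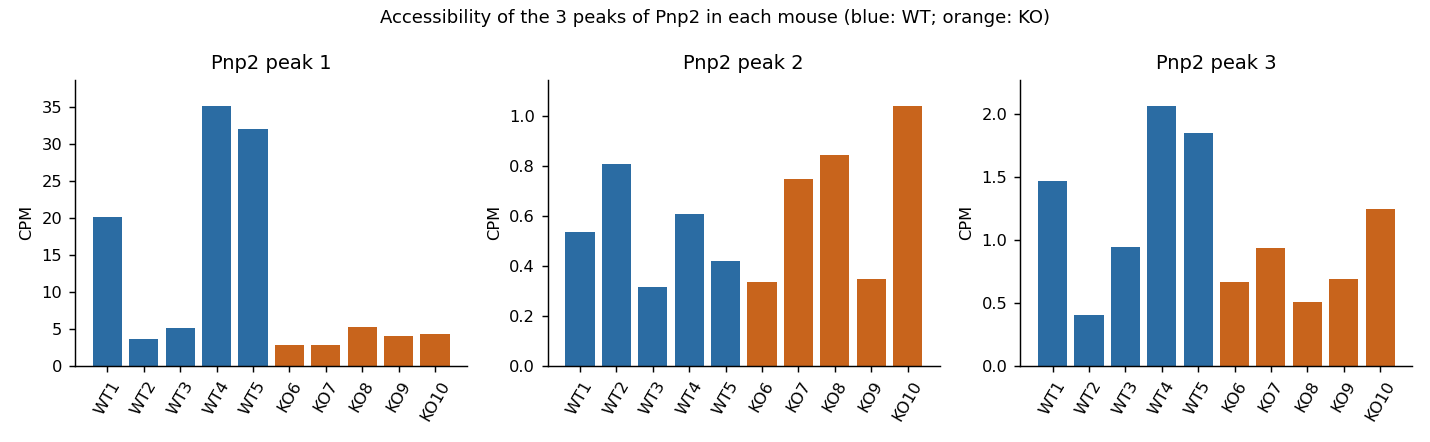
Accessibility in CPM (vertical axes, from 0) of the 3 peaks of Pnp2, numbered in the order of the chromosome, in each WT mouse (blue) and KO mouse (orange). Peak 1 is high in WT1, WT4 and WT5, at 20.1, 35.2 and 32.0 CPM, and at most 5.21 CPM in the other 7 mice, and peak 2 shows no such split.

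Peak 1 held 89.6% of the counts of Pnp2 and 97.4% of the difference. It had 151, 18, 48, 289 and 535 counts in WT1 to WT5, and 17, 15, 31, 23 and 21 in KO6 to KO10. In CPM these were 20.1, 3.64, 5.04, 35.2 and 32.0 in the WT mice and from 2.80 to 5.21 in the KO mice. Peak 3 was high in the same 3 WT mice, at 1.47, 2.07 and 1.85 CPM, with 0.404 and 0.945 CPM in WT2 and WT3 and from 0.504 to 1.25 CPM in the KO mice. Over the 10 mice, log2 CPM of peaks 1 and 3 had a Pearson r of 0.83, and of peaks 1 and 2 a Pearson r of -0.14. These are descriptions over the same libraries, and peaks 2 and 3 had at most 31 counts in a mouse. Pnp2 was the only one of the 8 genes on chromosome 14, which also carries Slc39a14, 19338715 bases farther along. Whether this shared chromosome bears on the values of Pnp2 was not tested.

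**Figure D3:**
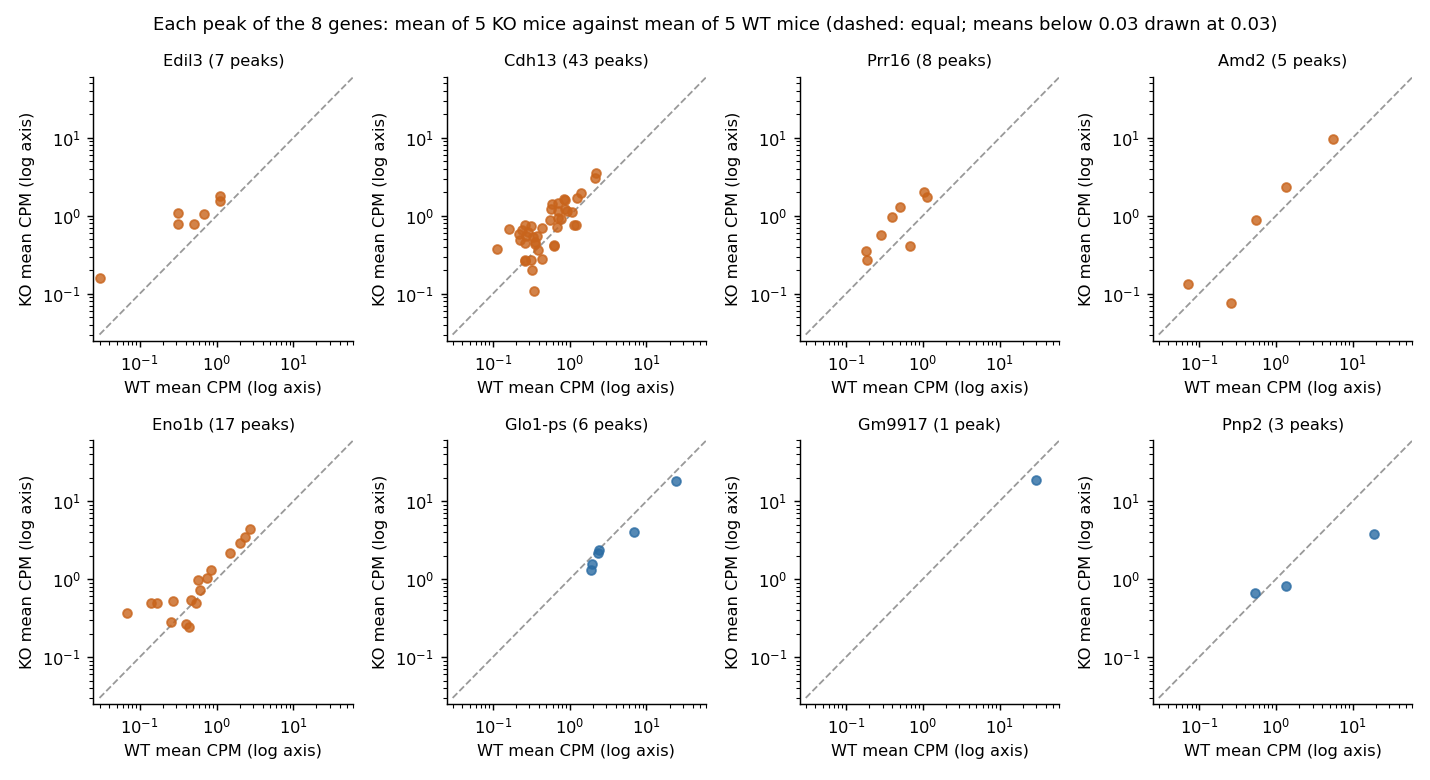
Mean CPM over 5 KO mice against mean CPM over 5 WT mice for each of the 90 peaks, 1 panel per gene, on log axes, with orange for genes more accessible in KO mice and blue for genes less accessible. The dashed line marks equal means. In 66 of the 80 peaks of the 5 more accessible genes the KO mean is higher, and in 9 of the 10 peaks of the 3 less accessible genes it is lower.

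Of the 90 peaks, 15 had enough counts to be tested by themselves. All 8 tested peaks of the more accessible genes had a log2 fold change above 0 and all 7 of the less accessible genes one below 0, as the choice of the genes leads to. None passed an adjusted p of 0.05 in edgeR's quasi-likelihood test over 80700 peaks, where 0% of peaks passed and 15.9% had an unadjusted p under 0.05. The peaks of Pnp2 (peak 1) and Amd2 (peak 3) had the lowest adjusted p of the 15, 0.067 and 0.068. Apart from Gm9917, which has 1 peak, the genes were thus called on sums over peaks.

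The 2 directions came with different kinds of peaks. The mean count of a peak in a mouse was 5.24 to 13.9 in the 5 more accessible genes and 42.7 to 198.5 in the 3 less accessible ones. Over all tested gene IDs the same split was present. Of the 12405 gene IDs with a mean under 10 counts per peak, 6.02% were called higher and 0% lower, and 85.9% had a log2 fold change above 0, with a median of 0.32. Of the 10362 with a mean over 40 counts per peak, 0.386% were called higher and 2.70% lower, and 12.4% had a log2 fold change above 0, with a median of -0.15. Edil3, Cdh13, Prr16 and Eno1b belong to the former range, Amd2 lies between them with 13.9, and Glo1-ps, Gm9917 and Pnp2 belong to the latter. The bounds of these ranges were chosen after the values of the genes were seen. With offsets from a loess curve of each mouse against mean count, the log2 fold changes of the 5 more accessible genes lay between 0.59 and 0.70, lower than above for Edil3, Prr16 and Amd2 and higher for Cdh13 and Eno1b. Those of Glo1-ps, Gm9917 and Pnp2 were -0.33, -0.64 and -2.14, and Pnp2 alone of the 8 passed (adjusted p = 0.043 in edgeR's quasi-likelihood test), where 0.724% of all gene IDs did.

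Among the WT mice, 2 libraries stood at the ends for most of the genes. WT5, the deepest library, was the WT mouse farthest from the KO mice in 5 of the 8 genes. WT2, the shallowest of the WT mice, was the nearest to them in 5. The part of depth in these differences was not tested. Without WT5 the log2 fold change was nearer to 0 for 7 of the 8 genes (0.77 for Edil3, 0.43 for Cdh13, 0.63 for Amd2, 0.56 for Eno1b, -0.36 for Glo1-ps, -0.63 for Gm9917 and -1.77 for Pnp2) and farther for Prr16, at 0.83. In that fit 0 of the 8 genes and 0% of all gene IDs passed an adjusted p of 0.05 in edgeR's quasi-likelihood test. Without WT2, 8 of 8 passed, as did 8.87% of all gene IDs.

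Apart from genotype, the genes did not move as 1 group. After the mean of each genotype was taken away, the Pearson r of log2 CPM over the 10 mice was 0.68 between Edil3 and Cdh13, 0.50 between Edil3 and Prr16, and 0.63 between Amd2 and Eno1b. It was -0.32 between Prr16 and Amd2. Over the 10 pairs of more accessible genes it had a median of 0.28, and over the 3 pairs of less accessible genes 0.09. Amd2 and Eno1b ran against Pnp2, with r of -0.73 and -0.74. All of these values share the same 10 libraries and their depth.

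Over the 10 mice with genotype included, the genes of known symbol most like each of the 8 in log2 CPM were sought among 216 others. Cartpt, a neuropeptide precursor gene, was among the 2 most like Edil3, Cdh13 and Prr16, with r of 0.85, 0.89 and 0.83. The second for Edil3 was Cdh13 with 0.85, for Cdh13 Apln with 0.85, and Edil3 came before Cartpt for Prr16 with 0.84. Amd2 and Eno1b were among the 2 most like each other with 0.84, beside Nrg1 for Amd2 with 0.84 and Dclk3 for Eno1b with 0.86. Glo1-ps was most like Rpl34-ps1 and Tc2n, with 0.76 and 0.73, the lowest values of the 8. For Gm9917 they were St3gal4 and Mcoln3, with 0.88 and 0.88, and for Pnp2 D330041H03Rik and Cfi, with 0.87 and 0.87. The genes searched are those of the RNA-seq list, and a shared genotype difference enters each r.

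The gene IDs beside the 8 genes were not used to choose them. The order of the peaks along the chromosomes was inferred from the order of the entries, in which the 8 genes stand as their chromosome and start position place them (8 of 8). Of the 80 gene IDs among the 5 on each side, 70 were tested. At an adjusted p under 0.05 in edgeR's quasi-likelihood test over all gene IDs, 3 were higher and 2 lower in KO mice, which is 7.14% of the 70 against 3.91% of all gene IDs. With loess offsets 0 of the 70 passed, and with 1 surrogate variable 0, so that none of the calls named next held under either, where 0.724% and 0.0872% of all gene IDs passed. The 3 lay beside Prr16, Amd2 and Eno1b and the 2 beside Pnp2, and there were 0 beside Edil3, Cdh13, Glo1-ps and Gm9917. With a mouse left out the count followed that over all gene IDs, with 0 without WT3, WT5, KO6, KO9 or KO10, where 0% of all gene IDs passed, 1 without WT4, where 0.919% did, and 10 without WT2, where 8.87% did.

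**Figure D4:**
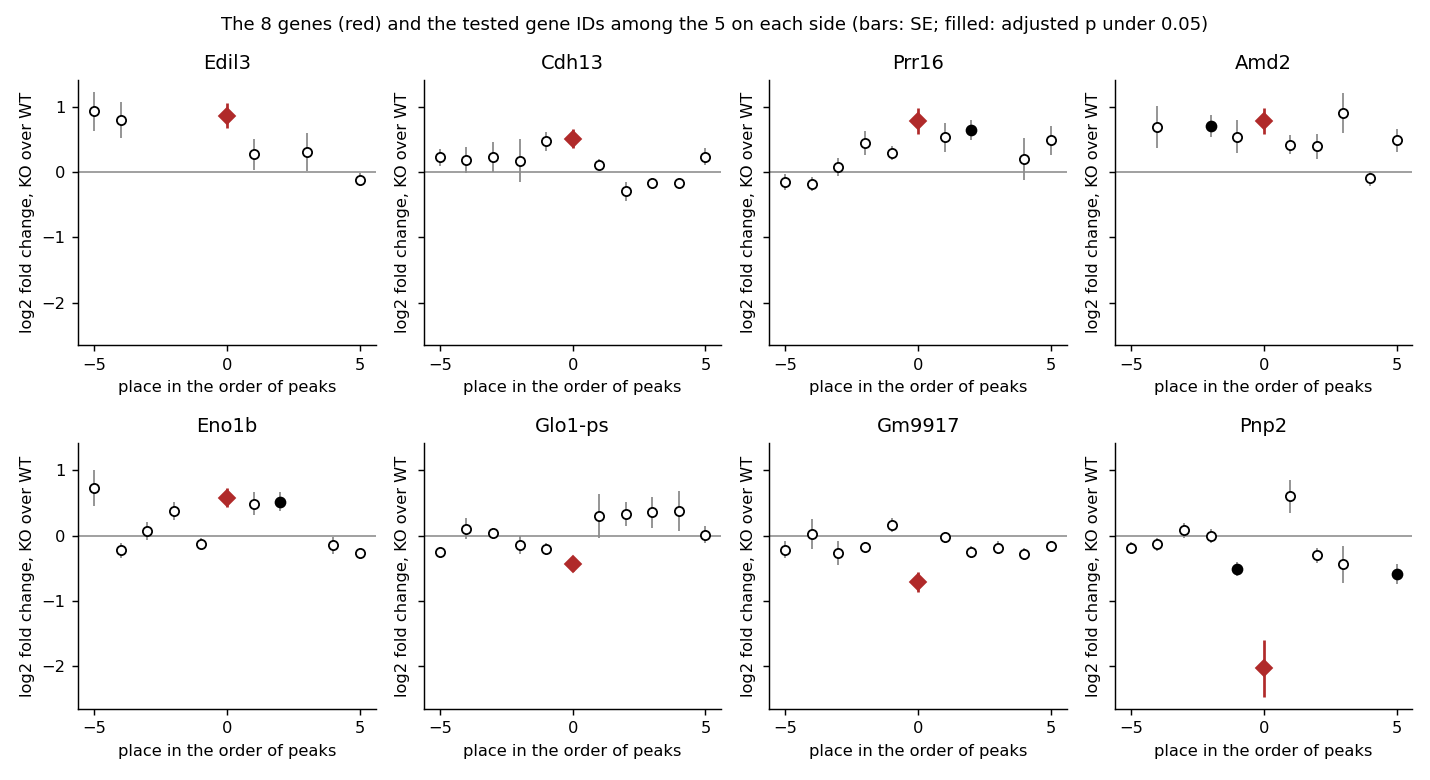
Log2 fold change of KO over WT (vertical axes) for each of the 8 genes (red diamonds) and the tested gene IDs among the 5 before and after it in the inferred order of peaks (horizontal axes, place relative to the gene). Bars are SEs and filled circles passed an adjusted p of 0.05. The side of 0 on which neighbours lie follows their count per peak. All 27 neighbours of under 10 counts per peak lie above 0, against 85.9% of all such gene IDs. Of the 22 of over 40 counts per peak, 19 lie below 0, where 12.4% of all such gene IDs lie above it.

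The side of 0 on which a neighbour lay is read against all gene IDs of like count per peak, of which 85.9% lay above 0 for a mean under 10 counts and 12.4% for a mean over 40. Of the 8 tested neighbours of Amd2, 7 had a log2 fold change above 0, which is near that share, since 6 of the 8 had a mean under 10 counts per peak. ENSMUSG00000110837, 2 places before Amd2, rose in KO mice with a log2 fold change of 0.71 (SE 0.17, adjusted p = 0.036 in edgeR's quasi-likelihood test). It had 5.76 ± 1.22 CPM in WT and 9.20 ± 1.38 CPM in KO mice (SD, n = 5 each), with 4 of 5 KO mice above every WT mouse. Around Prr16, 7 of 9 tested neighbours lay above 0, among them all 5 with a mean under 10 counts per peak, against 85.9% of all such gene IDs. ENSMUSG00000077317, 2 places after it, rose with 0.65 (SE 0.15, adjusted p = 0.036 in the same test), from 6.21 ± 0.735 to 9.62 ± 1.51 CPM (SD, n = 5 each), with all 5 KO mice above every WT mouse.

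Around Eno1b, 5 of 9 tested neighbours lay above 0, and the gene ID 2 places after it rose with 0.52 (SE 0.14, adjusted p = 0.046 in edgeR's quasi-likelihood test). The gene ID just before Cdh13, with 36 peaks, had a log2 fold change of 0.47 (SE 0.15, adjusted p = 0.067 in the same test). Its Pearson r with Cdh13 over the 10 mice, genotype included, was 0.94. Over the 41 tested neighbours of the 5 more accessible genes the median log2 fold change was 0.27, and 30 lay above 0. Of these 41, 23 had a mean under 10 counts per peak, and 23 of those lay above 0, against 85.9% of all such gene IDs.

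Around Pnp2, 7 of 9 tested neighbours lay below 0. Of the 9, 7 had a mean over 40 counts per peak and 6 of these lay below 0, near the share over all such gene IDs, of which 12.4% lay above 0. ENSMUSG00000115338, the gene ID just before Pnp2, fell in KO mice with a log2 fold change of -0.51 (SE 0.11, adjusted p = 0.031 in edgeR's quasi-likelihood test). It had 36.0 ± 4.76 CPM in WT and 25.4 ± 2.46 CPM in KO mice (SD, n = 5 each), and each of the 5 KO mice lay under the lowest WT mouse. Here WT2 and WT3 lay above the KO range in CPM, whereas they lay inside it for Pnp2. ENSMUSG00000068407, 5 places after Pnp2, fell with -0.60 (SE 0.15, adjusted p = 0.042 in the same test), from 31.8 ± 9.42 to 21.2 ± 1.78 CPM (SD, n = 5 each). Its Pearson r with Pnp2 over the 10 mice was 0.88, and the genotype difference of both enters this value.

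The gene ID just after Pnp2 ran the other way. It had a log2 fold change of 0.60 (SE 0.25, adjusted p = 0.139 in edgeR's quasi-likelihood test). Its Pearson r with Pnp2 over the 10 mice, genotype included, was -0.90. Its counts were 37, 36, 61, 16 and 57 in WT1 to WT5, and 37, 40, 43, 41 and 34 in KO6 to KO10. Brought to a common library size, these were 4.79 ± 2.17 CPM in WT and 7.01 ± 0.490 CPM in KO mice (SD, n = 5 each). Of the 5 KO mice, 1 was above every WT mouse. Among the tested neighbours of Glo1-ps, 7 of 10 lay above 0, 4 of them with a mean under 10 counts per peak. Among those of Gm9917, 8 of 10 lay below 0, all 8 among the 9 with a mean over 40 counts per peak, which is near the share over all such gene IDs. Over the 29 tested neighbours of the 3 less accessible genes, 18 had a mean over 40 counts per peak, and 15 of these lay below 0.

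The pathways and families to which the genes or their source genes belong could be followed only in part. Lists of the polyamine, glycolysis, methylglyoxal and purine salvage pathways, of integrin-binding matrix proteins with their integrins, and of cadherins hold 74 genes, of which 3 are paired with a gene ID here, all outside the 4 metabolic lists. None of the 3 passed an adjusted p of 0.05 in edgeR's quasi-likelihood test. Cdh26, a cadherin gene of epithelia, had 113 ± 5.12 CPM in WT and 114 ± 9.46 CPM in KO mice (SD, n = 5 each), a log2 fold change of 0.02 (SE 0.08). Nid2, which encodes the basement membrane protein nidogen 2, had 29.6 ± 4.18 and 29.1 ± 4.36 CPM (SD, n = 5 each), and Spp1, which encodes osteopontin, a ligand of integrins, had 12.6 ± 1.51 and 11.3 ± 0.798 CPM (SD, n = 5 each). The difference of each was smaller than the SD of its WT mice. The source genes Amd1, Eno1, Glo1 and Pnp, and the endothelial, stromal, T cell and B cell markers, were not paired with an ID and were not analysed by name. In the annotation Pnp is the gene just before Pnp2. Whether ENSMUSG00000115338, the gene ID just before Pnp2 described above, is that of Pnp was not determined.

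**Figure D5:**
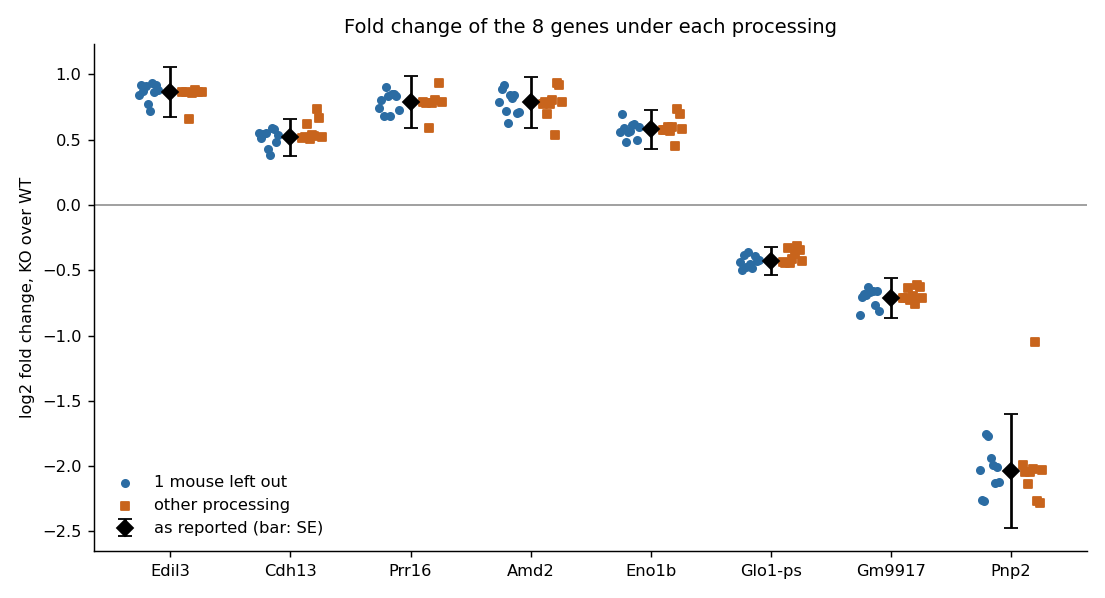
Log2 fold change of KO over WT (vertical axis) for the 8 genes as reported (black diamonds, bars SE), with 1 mouse left out (blue circles, 10 fits) and under other processing (orange squares). No value crosses 0. The value farthest from the rest of its gene is that of Pnp2 with 1 surrogate variable, -1.05.

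The sign of each of the 8 differences was the same in every fit that gave a value, as the choice of genes with a clear difference makes likely, while the call was not. Of the 8 genes, the number past an adjusted p of 0.05 in edgeR's quasi-likelihood test was 0 without WT3, WT5, KO6, KO9 or KO10, and 8 without WT2 or KO7. In the same fits 0% of all gene IDs passed without each of the former 5 mice, and 8.87% and 5.99% without the latter 2. Over all 17 to 19 alternative fits that gave a value, a gene passed in 6 to 11.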

How the data were processed

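ATAC-seq libraries of purified IECs from 5 WT and 5 KO mice were used, grouped by their labels. The authors deposited raw counts per peak for 1 peak set shared by all mice, on mm10 per the labels, and a signal made by dividing these counts by a factor for each mouse, which was not tested. The aligner, peak caller, duplicate handling and the rule that assigned peaks to genes are not given in the sources used here. Peak coordinates were not used here.

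The 8 genes and all lists were chosen with earlier results of these data known. Counts were summed over the peaks of a gene ID. The 594 peaks without an ID, with 0.612% to 0.965% of a mouse's counts, were left out. Gene IDs and single peaks that passed filterByExpr were fitted with edgeR 4.0.16 (R 4.3.3), TMM factors, glmQLFTest and Benjamini-Hochberg adjustment, with genotype as the only term. Log2 CPM used a prior count of 2, and peaks of Pnp2 were correlated as log2(CPM + 0.5). P-values measure the spread between these mice. Tables were made with Python 3.11.15 and pandas 2.3.3. On simulated counts for 36715 gene IDs, 80 of 100 changed 2-fold and 43 of 100 changed 1.5-fold were recovered, with 13 false calls. Unlike these data, the simulated counts held no genotype difference that follows the count per peak. These numbers may thus not apply to the data.

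Gene symbols come from the study's RNA-seq list, which pairs 302 IDs with symbols, and positions from RefSeq on GRCm38.p6 matched by symbol. Neighbours were to be taken from a reference annotation. Its genes are not paired with IDs, so the order of peaks was used instead. Named are the 8 genes, neighbours, listed genes and markers past an adjusted p of 0.05, the gene of highest CPM in each list, the 2 genes most like each of the 8 with a mean of at least 20 counts, and the gene just outside the threshold. The neighbours just before Cdh13 and just after Pnp2, the other listed genes with an ID and the ranges of count per peak were picked with their values in view. The fits were repeated with DESeq2 1.42.0, total counts, loess offsets (span 0.3), no count filter, a floor of 10 counts in each mouse, 1 surrogate variable (sva 3.50.0), the strongest peak alone, filtered peaks, the strongest peak of all left out, a prior count of 0.5 and each mouse left out.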

Additional observations from a re-analysis of the deposited data

Results flagged for a closer look

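A mouse was sought whose log2 CPM lay more than 0.71 of its genotype's range away from the nearest other mouse, gene by gene, in 16 sets of 5 mice. By chance about 1 set in 20 has such a mouse, and here 2 had. Cdh13 had a log2 CPM of 4.37 in WT5, below the other WT mice, which ran from 4.76 to 4.91. Gm9917 had a log2 CPM of 4.25 in WT1, below the other WT mice, which ran from 4.97 to 5.18. Without WT5 the log2 fold change of Cdh13 was 0.43, and without WT1 that of Gm9917 was -0.84. The spread of Pnp2 among the WT mice was not of this kind, because WT2 and WT3 lay apart from the others together.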

How the results depend on the processing

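All 148 alternative values of the 8 log2 fold changes kept their sign and moved by less than the SD between mice of a genotype, as did the 72 of the strongest tested peaks of 6 genes and those with a prior count of 0.5. Pnp2 moved most, from -2.04 to -1.05 with 1 surrogate variable. Edil3 and Prr16 gave no value in the fits on the strongest peak or on filtered peaks. Of the 8 genes, the number past an adjusted p of 0.05 was 1 with loess offsets, 0 with 1 surrogate variable, 0 of 6 on the strongest peak and 2 of 6 on filtered peaks, where 0.724%, 0.0872%, 0.214% and 0.894% of all gene IDs passed. It was between 6 and 8 with DESeq2, total counts, either change of filter and without the strongest peak of all, where the share of all gene IDs was 5.96% with DESeq2, 2.42% with total counts, 2.68% with no filter, 5.27% with the floor of 10 counts and 4.05% without the strongest peak of all. With 1 mouse left out it ranged from 0 to 8, with 0 without WT3, WT5, KO6, KO9 or KO10, 2 without WT4 and 4 without WT1, where 0% of all gene IDs passed in the first 5 of these fits, 0.919% without WT4 and 3.42% without WT1. The count of 5 neighbours was 0 with loess offsets, 0 with 1 surrogate variable, 1 of 57 tested on the strongest peak and 1 of 57 on filtered peaks, against the same shares, and with 1 mouse left out it ranged from 0 to 10. Over all gene IDs the calls numbered 1065 higher and 369 lower, against 1451 and 737 with DESeq2, 737 and 153 with total counts, 211 and 55 with loess offsets, and 30 and 2 with 1 surrogate variable. With 1 mouse left out they ranged from 0 and 0, in the same 5 fits as above, to 2186 and 1124 without WT2. No paired analysis was possible because no replicate number occurs in both genotypes. The cause of these changes was not tested. The count of source genes and paralogues was not run, since none of the 15 is paired with a gene ID here. Edil3 and Prr16 had at most 24 counts in a peak of a mouse, which limits what single peaks show.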
